A study of Mus musculus with 11 samples.

Results

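Fecal miRNAs were compared between day 12 and day 5 of an experimental colitis, that is, between recovery and the acute phase. The comparison used 7 of the 11 libraries of the study, 4 of day 12 and 3 of day 5, chosen by the name of their column of raw counts. All the mice were C57BL/6, and every library was made from feces. The day 5 mice had drunk 2.5% dextran sulfate sodium (DSS), which damages the colon epithelium, for 5 days. The day 12 mice had drunk the same DSS for 5 days and then water without it for 7 days. The other 4 libraries came from before DSS. They entered the fit for its estimate of the spread, and their levels are given as a reference without a test. No untreated mice of day 5 or 12 were among the samples, so recovery and sampling day cannot be told apart. Whether each library stands for 1 mouse, and whether mice were followed from phase to phase, is not in the labels. P-values therefore reflect the spread among these libraries, some of which may be technical.

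A miRNA is a short RNA that guides an Argonaute protein to messenger RNAs and lowers their stability or translation. Its bases 2 to 8, the seed, do most of the pairing, so miRNAs that share a seed share many targets. Feces hold miRNAs from shed epithelial cells, from blood and immune cells that enter the gut lumen, and from food and other sources. DSS colitis brings epithelial loss, bleeding and an influx of neutrophils.

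The table's total was 11749 to 17872 counts per library on day 5 and 18863 to 40835 on day 12. At these totals 3 counts correspond to 73.5 to 255 CPM (counts scaled to a common library size) by library total, and lower levels could go unseen in 1 library. Levels below are CPM scaled with TMM factors, which correct for composition, unless another scale is named. Libraries of day 5 resembled each other with Pearson correlations of 0.882 to 0.904 across rows, and those of day 12 with 0.759 to 0.951. Between a day 5 and a day 12 library the correlation was 0.587 to 0.874. The median of these pairs was 0.813, the same as among the day 12 libraries. Day 12 library 4 had the lowest median correlation with its own group, 0.782. In that library 40 of the 137 tested rows had their lowest level of the 7 libraries and 30 their highest. Values without it are given where it matters.

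The mature sequences of the miRNAs that carry the comparison are shown here 5′ to 3′ as RefSeq gives them for GRCm38.p6, with the seed in capitals. The first set holds the named miRNAs past the threshold, with the other arm of the miR-223 hairpin. The miR-223 hairpin spans 96242817 to 96242926 of chromosome X on the plus strand, within an exon of the noncoding gene F630028O10Rik. The miR-652 hairpin spans 142739000 to 142739097 of the same chromosome, within an intron of Tmem164. The miR-744 hairpin is on chromosome 11 at 65734733 to 65734832, within an intron of Map2k4, and miR-5126 is on chromosome 1 at 84695839 to 84695915, over an exon of Dner but on the opposite strand.
miR-223-3p: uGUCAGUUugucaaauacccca
miR-223-5p: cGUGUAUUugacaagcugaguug
miR-652-3p: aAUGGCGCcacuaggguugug
miR-5126: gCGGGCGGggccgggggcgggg
miR-744-5p: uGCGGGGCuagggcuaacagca

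The second set holds pairs with 1 seed whose members differed in direction. miR-146b-5p differs from miR-146a-5p by G18A and U21C, and let-7c-5p from let-7i-5p by U12G, G17A, C18U and U19G, with positions counted from the 5′ end and the base of miR-146a-5p or let-7i-5p written first. The hairpin of miR-146a lies on chromosome 11 at 43374397 to 43374461 in no annotated host gene, and that of miR-146b on chromosome 19 at 46342762 to 46342870 within Mfsd13a, in an intron.
miR-146a-5p: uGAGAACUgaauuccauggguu
miR-146b-5p: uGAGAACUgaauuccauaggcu
let-7i-5p: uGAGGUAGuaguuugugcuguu
let-7c-5p: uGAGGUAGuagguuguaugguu

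The third set holds families whose members had the same direction. miR-200b-3p, miR-200c-3p and miR-429-3p share a seed, as do miR-100-5p, miR-99a-5p and miR-99b-5p. miR-10a-5p and miR-10b-5p differ from each other by U12A, with the base of miR-10a-5p first, and share a seed of their own.
miR-200b-3p: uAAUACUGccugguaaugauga
miR-200c-3p: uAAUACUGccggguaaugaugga
miR-429-3p: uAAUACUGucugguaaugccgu
miR-100-5p: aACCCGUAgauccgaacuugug
miR-99a-5p: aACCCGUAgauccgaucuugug
miR-99b-5p: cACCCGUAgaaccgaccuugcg
miR-10a-5p: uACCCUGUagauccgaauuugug
miR-10b-5p: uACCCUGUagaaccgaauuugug

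Between day 5 and day 12, 4 miRNAs rose and 1 row without a miRNA name fell. The 4 were miR-223-3p, miR-652-3p, miR-5126 and miR-744-5p, and the row that fell was novel_249, as the table names it. Of the 616 rows 137 had enough counts to be tested by edgeR's quasi-likelihood test. The 5 calls at a Benjamini-Hochberg adjusted p under 0.05 were 3.65% of them, 2.92% higher and 0.73% lower. Of the 5, miR-223-3p and miR-652-3p had enough counts for the test only through day 12, and novel_249 only through day 5. These rows were tested only because of the group in which they were high. An unadjusted p under 0.05 was reached by 18 rows that were higher (13.1%) and 8 that were lower (5.84%). Of all 137 rows, 68 had a positive and 69 a negative log2 fold change, the base for the sign counts of lists below. The levels of the day 12 libraries lay all above those of day 5 for 12 rows (8.76%) and all below for 10 rows (7.3%). By plain library total 6 rows were apart above and 12 below, and 6 and 7 rows were apart on both scales. With library totals in place of TMM the median log2 fold change over all rows shifted by -0.28 and left 1 higher and 1 lower call. In a fit with the library number as a block, 12 rows were higher (8.76%) and 2 lower (1.46%), and these 14 included the 5. No label says that libraries of the same number belong together. Blocked values below are therefore those of an alternative fit and add no call. DESeq2 called the 5 and another 7, at adjusted p-values of 0.00727 for miR-223-5p, 0.00980 for miR-10b-5p, 0.0111 for let-7i-5p, 0.0193 for novel_285, 0.0201 for miR-139-5p, 0.0281 for miR-23a-3p and 0.0384 for miR-146b-5p.

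**Figure D1:**
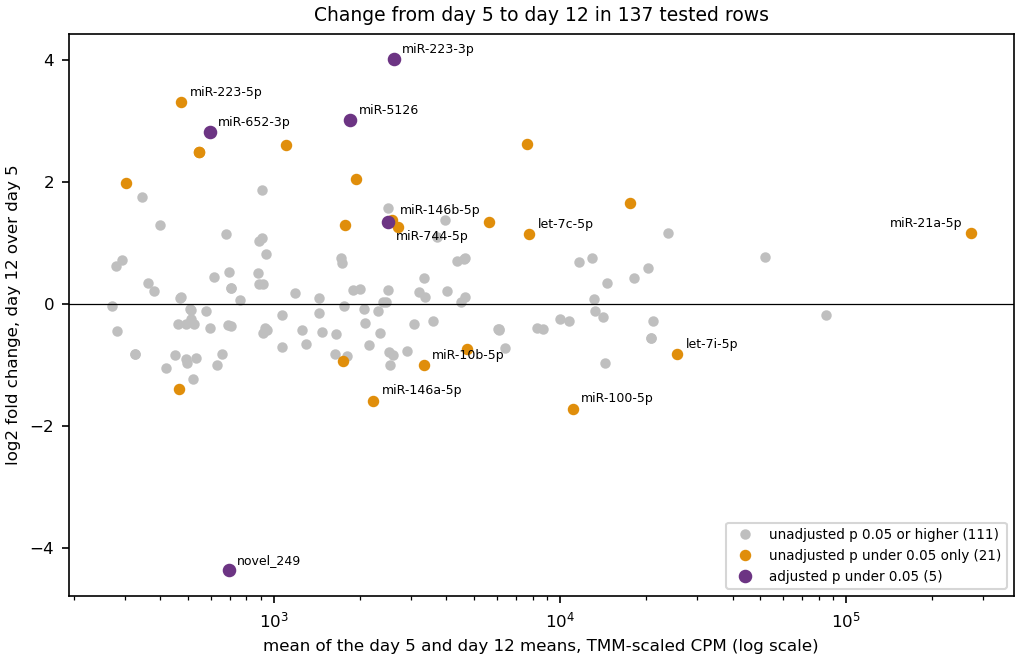
Log2 fold change of day 12 over day 5 (vertical axis) against the mean of the group means in TMM-scaled CPM (horizontal axis, log scale) for the 137 tested rows. Each point is a row. The 5 purple points have an adjusted p under 0.05, orange points an unadjusted p under 0.05 only, and miR-223-3p has the highest fold change at 4.01.

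miR-223-3p, which is abundant in neutrophils and monocytes, had the highest fold change of the 137 tested rows. Its level was 317, 185 and 404 CPM in day 5 libraries 1, 3 and 4, and 3153, 3683, 3817 and 9130 CPM in day 12 libraries 1 to 4. Every day 12 library was above every day 5 library, and library 4 stood highest. In edgeR's test this was a log2 fold change of 4.01 ± 0.59 (SE) at an adjusted p of 0.00192. These levels rest on 15 counts on day 5 and 480 on day 12, and before DSS the row had 1 count. The log2 fold change was 3.54 without day 12 library 4, and leaving out each library in turn gave adjusted p-values of 0.00181 to 0.0196.

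The other arm of the same hairpin, miR-223-5p, had 1, 0 and 3 counts on day 5 and 24, 11, 21 and 30 on day 12. No library of one day overlapped the other day. That is a log2 fold change of 3.31 ± 0.84 (SE), for which edgeR gave an adjusted p of 0.0692, or 0.0288 in the fit with the block. It was 4.67 without day 5 library 4, which held 3 of the 4 day 5 counts. The ratio of pooled CPM by library total was 8.03 (exact 95% interval 3.03 to 30.1, for counting error only). Where both arms had counts, miR-223-3p exceeded miR-223-5p by 2 to 6 times on day 5 and by 4.08 to 7.36 times on day 12.

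miR-652-3p rose from 106, 61.7 and 269 CPM on day 5 to 740, 819, 888 and 1727 CPM on day 12. The groups did not overlap on either scale, and the 7 day 5 counts were few. edgeR's estimate was a log2 fold change of 2.82 ± 0.65 (SE), at an adjusted p of 0.0404, and the fold change was 3.53 without day 5 library 4. The call was lost when any 1 of 8 libraries was left out, at adjusted p-values of 0.0581 to 0.206. These were day 5 libraries 1, 3 and 4, day 12 libraries 2 and 3, and libraries 1, 3 and 4 from before DSS. Its mean before DSS was 232 CPM, within the range of the day 5 libraries.

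miR-5126 rose from 846, 61.7 and 269 CPM to 2123, 4411, 5166 and 1480 CPM. All day 12 libraries stood above all day 5 libraries, and libraries 2 and 3 were highest. Expressed as a log2 fold change this was 3.02 ± 0.73 (SE), and edgeR's adjusted p was 0.0411, and the fold change was 4.30 without day 5 library 1, which held 16 of the 21 day 5 counts. It missed the threshold without any 1 of 7 libraries, at adjusted p-values of 0.0581 to 0.206, and these were the 8 listed for miR-652-3p except day 5 library 1. The mean before DSS, 2813 CPM, lay among the day 12 levels.

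miR-744-5p rose from 1057, 1357 and 1818 CPM to 2896, 3456, 5034 and 2961 CPM. The groups were apart with TMM factors and overlapped by library total. Its log2 fold change of 1.35 ± 0.34 (SE) was the smallest of the calls, at an edgeR adjusted p of 0.0476. It stayed past the threshold in 10 of 27 alternative settings, and the same 8 libraries as for miR-652-3p, left out singly, took it to adjusted p-values of 0.0611 to 0.206. The mean before DSS was 1554 CPM.

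The row novel_249 fell from 1532, 432 and 2020 CPM to 32.2, 0, 65.8 and 148 CPM, or from 29, 7 and 30 counts to 1, 0, 2 and 3. Every day 12 library was below every day 5 library. In edgeR's test this was a log2 fold change of -4.36 ± 0.90 (SE) at an adjusted p of 0.0240, and the fold change was -5.02 without day 12 library 4. Its adjusted p was 0.0628 without day 5 library 1, 0.0644 without day 5 library 4, 0.0585 without day 12 library 2 and 0.0729 without day 12 library 3. The table gives no sequence or position for such numbered rows. In libraries from before DSS it had 11 counts.

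**Figure D2:**
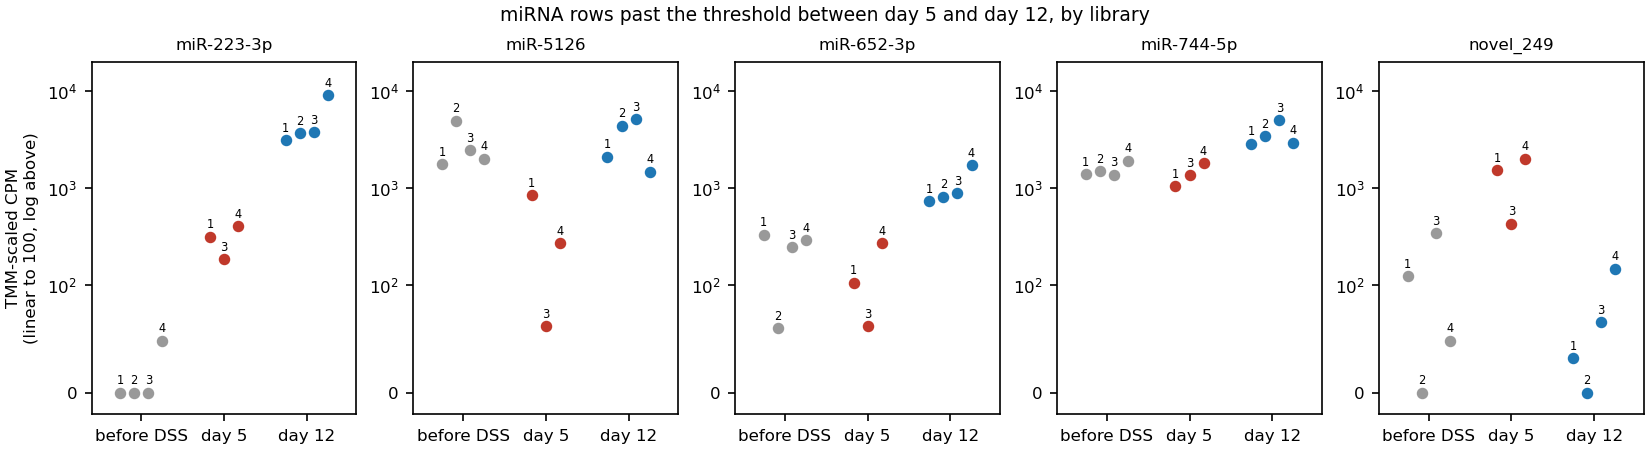
TMM-scaled CPM (vertical axis, linear to 100 and log above) of the 5 rows past the threshold in every library, by phase. Points are single libraries with their numbers. In each panel the day 12 libraries lie all above, or for novel_249 all below, the day 5 libraries. The libraries from before DSS are shown for reference only.

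The other leukocyte miRNAs that could be tested were higher in value on day 12 without passing the threshold. The tested members of the leukocyte list were both arms of miR-223 and of miR-142a, and 1 of these 4 passed. Of them miR-223-3p, miR-223-5p and miR-142a-3p had 0 to 6 counts in every library of day 5 and of before DSS, so they passed the filter through day 12, and their direction is not read as a property of the list. The list of 8 was chosen with these data known. Its summed share of the counts was 0.157%, 0.129% and 0.255% in the day 5 libraries and 0.688%, 0.620%, 0.722% and 0.950% on day 12. The groups did not overlap. On day 12 miR-223-3p had 480 counts, miR-142a-5p 130, miR-142a-3p 103 and miR-223-5p 86. The gap thus largely restates these rows and is not read as a property of the list. In feces, fewer cells of a type and less RNA per cell cannot be told apart. The 4 members below the filter included miR-150-5p, a lymphocyte miRNA named here after its value was seen, with 8 counts on day 5 and 17 on day 12, for which the pooled CPM ratio was 0.794 (exact 95% interval 0.325 to 2.13).

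miR-142a-3p, a miRNA of all blood cell lineages, had 158, 61.7 and 269 CPM on day 5 and 2027, 182, 559 and 938 CPM on day 12. Day 12 library 2 lay within the day 5 range, and library 1 was highest. That is a log2 fold change of 2.49 ± 0.88 (SE), for which edgeR gave an adjusted p of 0.158, or 0.0300 with the block. It was 1.75 without day 12 library 1. No library from before DSS had a count. miR-142b, whose hairpin covers that of miR-142a on the other strand, had the same count in every library, so the rows are 1 measurement. miR-142a-5p ran from 432 to 673 CPM on day 5 and from 395 to 2638 on day 12, with overlap. Its log2 fold change of 1.04 was 0.27 without day 12 library 1.

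Erythroid miRNAs had mostly negative fold changes. miR-451a, which is made in red cell precursors, had 22620, 11780 and 22630 CPM on day 5 and 3636, 7685, 5890 and 21620 CPM on day 12. Library 4 alone of the day 12 libraries lay inside the day 5 range. edgeR's estimate was a log2 fold change of -0.97 ± 0.51 (SE), at an adjusted p of 0.300, and the fold change was -1.73 without that library, at an adjusted p of 0.0147. It thus passed the threshold only when library 4 was left out. In the erythroid list 1 of 5 tested members had a positive and 4 a negative value, with a median of -0.42, and 0 passed with all libraries in. The 3 miR-486 rows tested differed by less than 1% in summed counts and count as 1 measurement. The list's share was 3.70% to 6.15% on day 5 and 1.01% to 4.83% on day 12. Within a library, which needs no scaling, miR-223-3p over miR-451a was 0.0140, 0.0157 and 0.0179 on day 5 and 0.867, 0.479, 0.648 and 0.422 on day 12. This ratio was chosen after the values were seen.

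**Figure D3:**
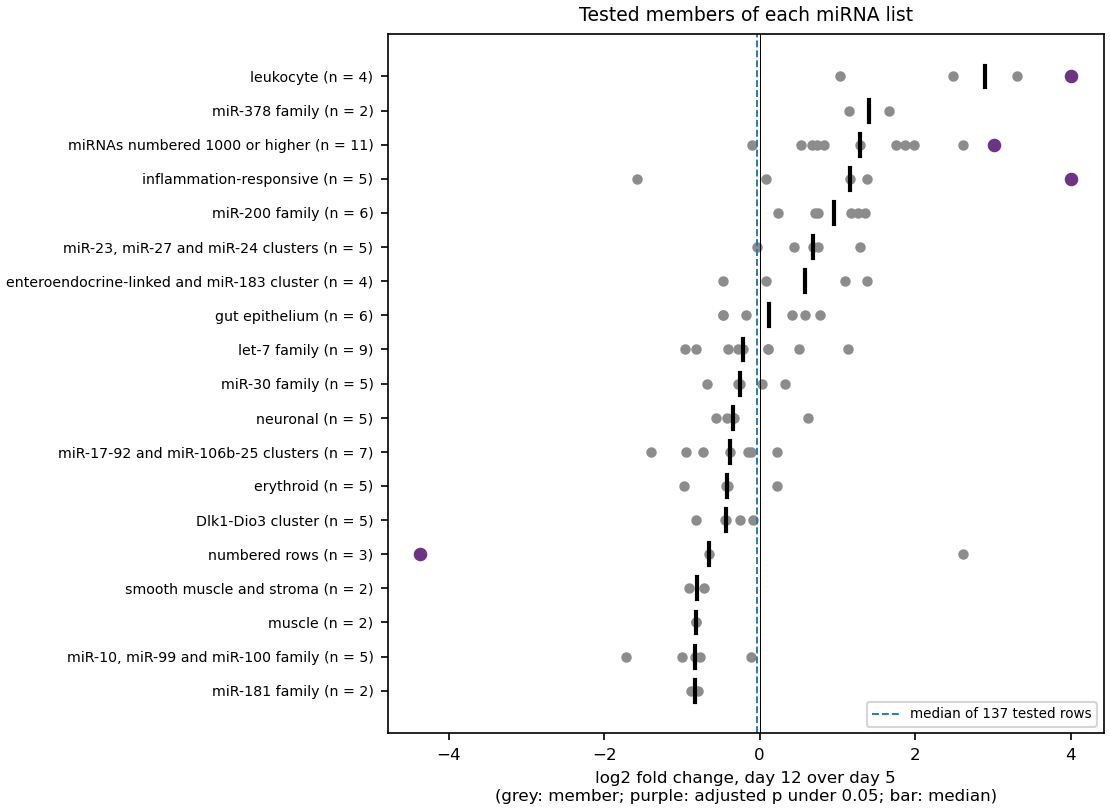
Log2 fold change of day 12 over day 5 (horizontal axis) of every tested member of the 19 lists with at least 2 tested members. Grey points are members, purple points have an adjusted p under 0.05, black bars are medians and the dashed line is the median of all 137 rows, -0.03. The medians run from 2.90 for the leukocyte list, 3 of whose 4 members passed the filter through day 12, to -0.84 for the miR-181 family.

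Among miRNAs tied to inflammation, miR-21a-5p and miR-146b-5p were higher and miR-146a-5p lower in value on day 12, none past the threshold. Of 5 tested members of this list 4 had positive values, with a median log2 fold change of 1.16, and 1 passed, the miR-223-3p already described. The list's share was 21.8%, 23.0% and 22.4% on day 5 and 38.5%, 27.5%, 30.6% and 43.9% on day 12, and nearly all of it was miR-21a-5p.

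miR-21a-5p, a miRNA of growing and inflamed tissue, was the most abundant row of every library of both days. It had 189400, 156900 and 158400 CPM on day 5 and 488000, 214100, 225300 and 577500 CPM on day 12. The groups did not overlap on either scale, and libraries 1 and 4 were far above libraries 2 and 3. Expressed as a log2 fold change this was 1.16 ± 0.47 (SE), and edgeR's adjusted p was 0.177, or 0.0332 with the block. Its mean before DSS was 208900 CPM, between the day 5 levels and those of day 12. miR-148a-3p, an abundant miRNA of gut epithelium and other tissues, ran from 72040 to 122800 CPM on day 5 and from 53670 to 137800 on day 12. miR-21a-5p over miR-148a-3p within a library was 1.54, 2.18 and 2.12 on day 5 and 3.54, 3.06, 4.20 and 10.2 on day 12.

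miR-146a-5p and miR-146b-5p both repress Traf6 and Irak1, signaling proteins of the NF-kB pathway, through their common seed. miR-146a-5p had 2008, 5921 and 2088 CPM on day 5 and 1577, 1455, 987 and 395 CPM on day 12. Day 12 lay below day 5 throughout, and day 5 library 3 stood high. In edgeR's test this was a log2 fold change of -1.58 ± 0.51 (SE) at an adjusted p of 0.111, and the fold change was -0.88 without that library.

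miR-146b-5p had 1110, 1110 and 2088 CPM on day 5 and 3346, 1910, 2698 and 6958 CPM on day 12. Only day 12 library 2 fell below the highest day 5 library. That is a log2 fold change of 1.38 ± 0.45 (SE), for which edgeR gave an adjusted p of 0.113, or 0.0470 with the block. In the same library miR-146b-5p over miR-146a-5p was 0.553, 0.188 and 1.0 on day 5 and 2.12, 1.31, 2.73 and 17.6 on day 12. The groups did not overlap. Before DSS the ratio was 0.871 to 2.30. The rows differ at 2 bases near the 3′ end, and the sources used here do not give the mismatches that the counting allowed.

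**Figure D4:**
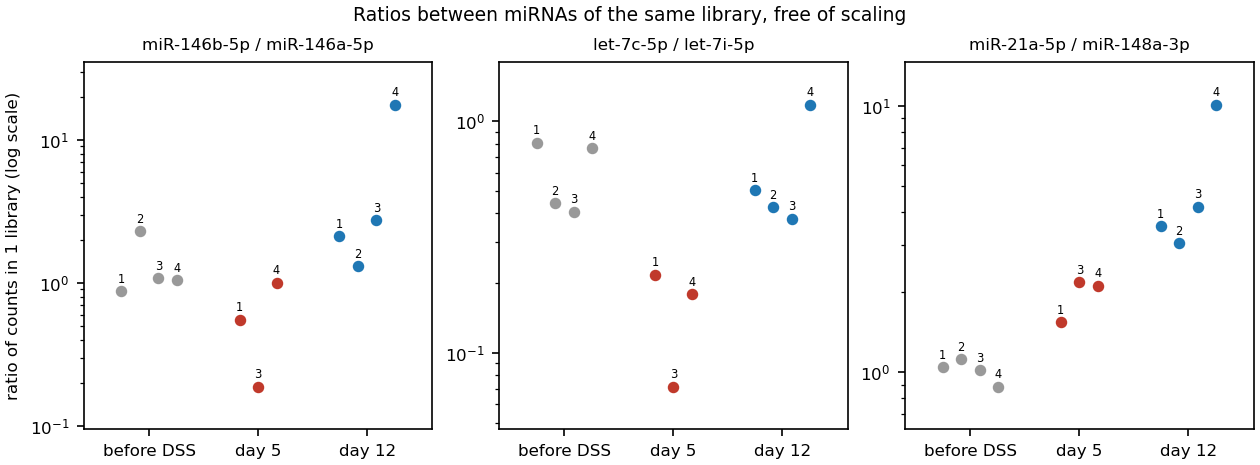
Ratio of the counts of a pair of miRNAs in the same library (vertical axis, log scale) for 3 pairs, by phase. Points are single libraries with their numbers. In each panel the 4 day 12 libraries lie above the 3 day 5 libraries, and day 12 library 4 is highest. The pairs were chosen after their values were seen.

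The let-7 family, which represses Lin28 and growth genes, was split. Of 9 tested members 4 had positive and 5 negative values, with a median log2 fold change of -0.21, and 0 passed. With the 5 most abundant rows removed before scaling the median was 0.04. let-7i-5p had 28960, 38060 and 31250 CPM on day 5 and 21430, 18050, 20140 and 14310 CPM on day 12, all lower. edgeR's estimate was a log2 fold change of -0.82 ± 0.28 (SE), at an adjusted p of 0.118. let-7c-5p had 6288, 2714 and 5589 CPM on day 5 and 10810, 7685, 7634 and 16880 CPM on day 12, all higher. Expressed as a log2 fold change this was 1.14 ± 0.43 (SE), and edgeR's adjusted p was 0.158, or 0.0288 with the block. let-7c-5p over let-7i-5p was 0.217, 0.0713 and 0.179 on day 5 and 0.505, 0.426, 0.379 and 1.18 on day 12. let-7f-5p, let-7g-5p, let-7a-5p and let-7b-5p overlapped between the days with TMM factors. The family's share of a library was 8.88% to 13.9% on day 5 and 4.82% to 8.72% on day 12.

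By seed, 113 of the 134 tested rows with a miRNA name matched a RefSeq mature sequence. Among them 18 seeds were shared by at least 2 tested rows, 49 rows in all. In 12 of these groups the members had 1 direction and in 6 both. The miR-146 and let-7 seeds were the 2 groups with an unadjusted p under 0.05 in both directions. The difference between members was not tested.

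Epithelial miRNAs had no single direction, while the miR-200 family had positive values, 1 of which did not hold. All 6 tested members of that family, which keeps cells epithelial by repressing Zeb1 and Zeb2, had positive values, with a median log2 fold change of 0.96, and 0 passed. By library total 5 of 6 were positive. The value of miR-141-3p, 0.72, was -0.75 without day 12 library 1, which held 33 of its 43 day 12 counts, and negative by limma. That of miR-200a-3p, 0.75, was 0.35 without day 12 library 4 and 1.38 without day 5 library 1. miR-429-3p had 2484, 987 and 1279 CPM on day 5 and 4408, 2728, 2139 and 6119 CPM on day 12. Only library 3 of day 12 lay within the day 5 range. In edgeR's test this was a log2 fold change of 1.27 ± 0.48 (SE) at an adjusted p of 0.158, or 0.0472 with the block.

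miR-200c-3p had 5020, 1850 and 2626 CPM on day 5 and 5309, 4093, 5528 and 17570 CPM on day 12. The last of these stood apart, and the log2 fold change of 1.35 ± 0.52 (SE) was 0.65 without it. miR-200b-3p, the most abundant of the family on day 12, had 22090, 6230 and 15760 CPM on day 5 and 20110, 21050, 19510 and 71710 CPM on day 12. Without library 4 the day 12 levels sat inside the day 5 range, and the log2 fold change of 1.17 ± 0.57 (SE) became 0.46. Day 12 library 4 had the highest level of the 7 libraries for 4 of the 6 members, and day 5 library 3 the lowest for 4. The hairpins of miR-200b, miR-200a and miR-429 lie together on chromosome 4 between 156053905 and 156055750 on the minus strand, and those of miR-141 and miR-200c on chromosome 6 between 124717914 and 124718390.

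In the gut epithelium list 3 of 6 tested members had positive and 3 negative values, with a median log2 fold change of 0.12, and -0.25 by library total. miR-192-5p, among the most abundant miRNAs of the intestinal lining, had 70180, 18500 and 26260 CPM on day 5 and 106400, 38930, 30070 and 87450 CPM on day 12. miR-194-5p ran from 6168 to 26690 CPM on day 5 and from 14550 to 42930 CPM on day 12. miR-215-5p, of the same seed as miR-192-5p, ran from 5736 to 28380 CPM and from 10630 to 31340 CPM. In all 3 day 5 library 3 was lowest, and the groups overlapped. miR-375-3p, a miRNA of enteroendocrine and other secretory cells, ran from 2097 to 3276 CPM on day 5 and from 1410 to 2566 CPM on day 12. miR-183-5p and miR-182-5p, neighbours on chromosome 6, had log2 fold changes of 1.10 and 1.38, the first of which was 0.21 without day 12 library 4 and the second 2.27 without day 5 library 1. The 0.78 of miR-192-5p was 1.55 without day 5 library 1.

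The miR-10, miR-99 and miR-100 group had lower values on day 12. All 5 members were tested and had negative values, with a median log2 fold change of -0.83, and 0 passed. Without day 12 library 4 the value of miR-99b-5p, the median member, was -0.48. That of miR-99a-5p went from -0.77 to -0.47. miR-10b-5p, whose gene lies among the Hoxd genes on chromosome 2, had 3858, 5736 and 3771 CPM on day 5 and 1866, 2819, 2040 and 2171 CPM on day 12. All day 12 libraries were lower. That is a log2 fold change of -1.0 ± 0.29 (SE), for which edgeR gave an adjusted p of 0.0878. miR-10a-5p ran from 12830 to 15270 CPM on day 5 and from 7014 to 16910 CPM on day 12, so the member 1 base apart overlapped.

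miR-100-5p, which with miR-99a-5p represses Mtor, had 7874, 32690 and 10240 CPM on day 5 and 3861, 9322, 7009 and 395 CPM on day 12. Day 5 library 3 and day 12 library 4 were the extremes. edgeR's estimate was a log2 fold change of -1.72 ± 0.72 (SE), at an adjusted p of 0.198, or 0.0470 with the block. It was -0.81 without day 5 library 3. miR-100-5p over miR-99a-5p was 9.30 in that library, 0.615 in day 12 library 4 and 2.38 to 2.73 in the other 5 of these libraries.

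Clusters tied to cell division had mostly lower values on day 12. In the miR-17-92 and miR-106b-25 list 1 of 7 tested members had a positive and 6 a negative value, with a median log2 fold change of -0.39, and 0 passed. The list includes miR-363-3p, whose hairpin lies on chromosome X and in neither of these clusters. miR-106b-3p had 3118, 1604 and 2155 CPM on day 5 and 965, 1091, 1481 and 1234 CPM on day 12. miR-25-3p, from the same part of Mcm7 on chromosome 5, had 6130, 6353 and 5185 CPM on day 5 and 2188, 3774, 4640 and 3603 CPM on day 12. Both had day 12 wholly below day 5, with log2 fold changes of -0.94 ± 0.35 (SE) and -0.73 ± 0.30 (SE) and edgeR adjusted p-values of 0.158 and 0.186. The third miRNA of that cluster, miR-93-5p, ran from 1295 to 1751 CPM and from 901 to 1843 CPM. The 4 tested rows with the seed of miR-25-3p had negative values, from -1.40 for miR-363-3p to -0.39 for miR-92a-3p. miR-363-3p had enough counts for the test only with day 5 libraries 3 and 4. Its sign is therefore not read as a property of the seed or of the list.

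In the miR-23, miR-27 and miR-24 clusters 4 of 5 members had positive values, with a median log2 fold change of 0.69, and 0 passed. miR-23a-3p had 846, 1295 and 943 CPM on day 5 and 2123, 1910, 2205 and 3849 CPM on day 12. The groups were apart with TMM factors and overlapped by library total. Expressed as a log2 fold change this was 1.29 ± 0.41 (SE), and edgeR's adjusted p was 0.111. miR-27a-3p, which comes from the same transcript on chromosome 8, had 1145 to 2529 CPM on day 5 and 1382 to 2413 CPM on day 12.

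miR-139-5p, from an intron of Pde2a on chromosome 7, had 1057, 247 and 943 CPM on day 5 and 901, 2592, 3718 and 5280 CPM on day 12. Only day 12 library 1 lay within the day 5 range. In edgeR's test this was a log2 fold change of 2.04 ± 0.64 (SE) at an adjusted p of 0.111, or 0.0327 without day 12 library 1. The mean before DSS, 288 CPM, was near the lowest day 5 library. miR-378a-3p had 12000, 4688 and 8552 CPM on day 5 and 52770, 8822, 8720 and 35980 CPM on day 12. Libraries 1 and 4 were high and libraries 2 and 3 lay inside the day 5 range. That is a log2 fold change of 1.66 ± 0.75 (SE), for which edgeR gave an adjusted p of 0.247, or 0.0288 with the block.

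**Figure D5:**
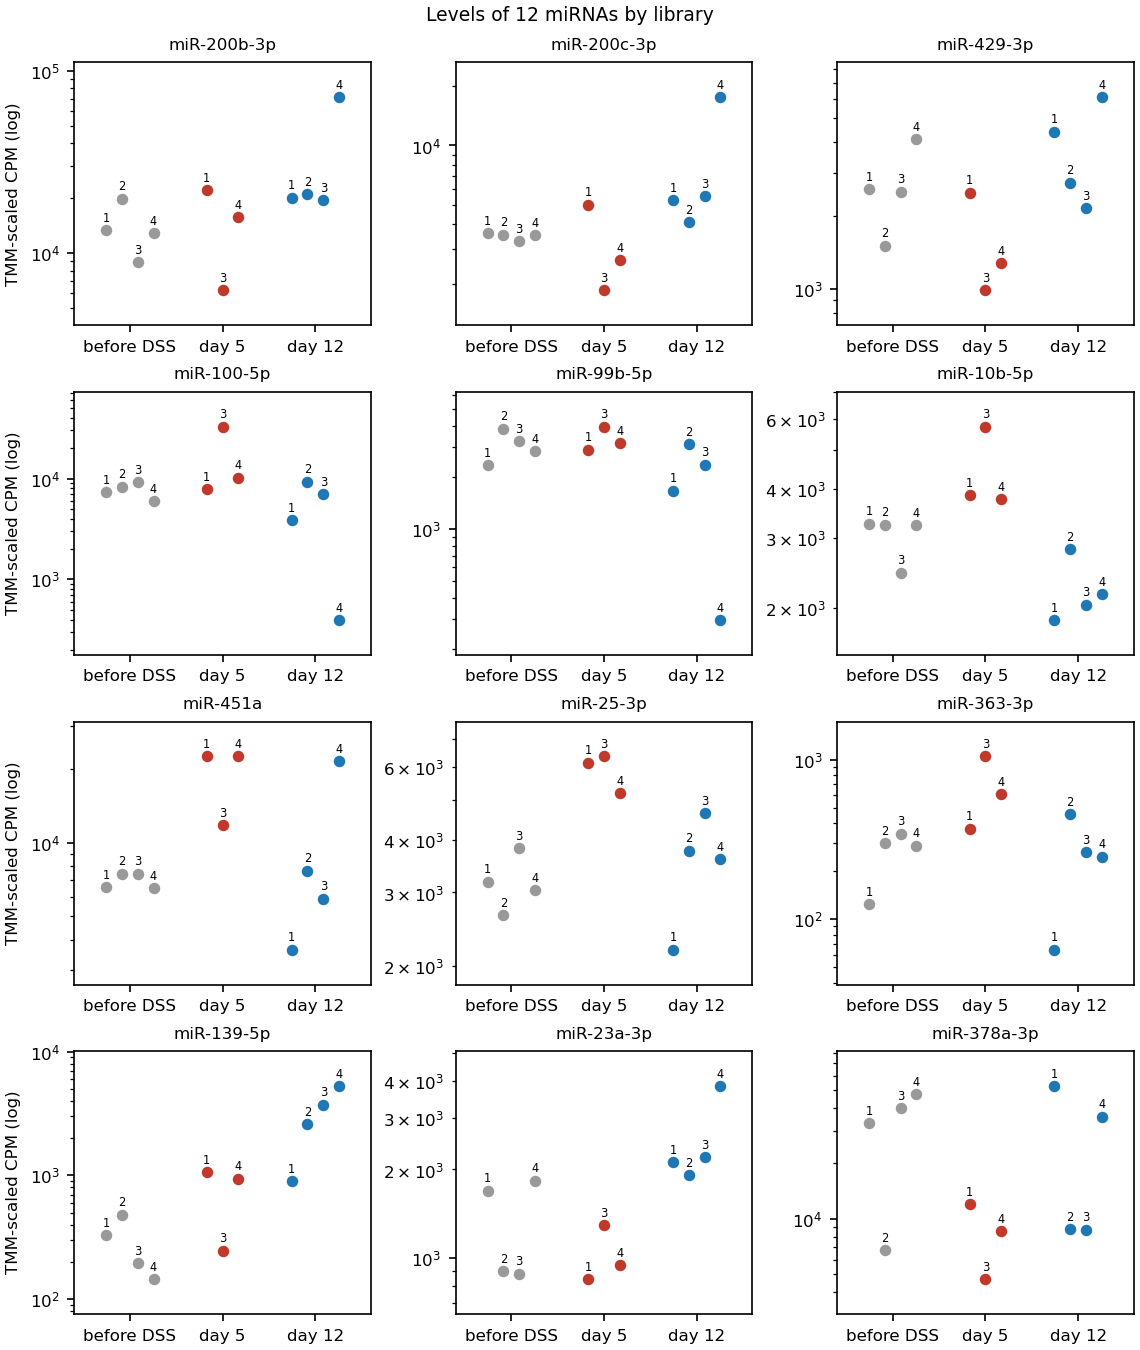
TMM-scaled CPM (vertical axis, log scale) of 12 miRNAs in every library, by phase. Points are single libraries with their numbers, and the libraries from before DSS are for reference only. miR-10b-5p and miR-25-3p have every day 12 library below every day 5 library, and miR-23a-3p every day 12 library above. In miR-200b-3p, miR-200c-3p, miR-100-5p and miR-99b-5p day 12 library 4 stands apart.

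Lists of nerve, muscle and stromal miRNAs had negative medians and 0 calls. The median log2 fold change was -0.34 for 5 tested neuronal members, -0.82 for 2 muscle rows with identical counts, -0.81 for 2 of smooth muscle and stroma, and -0.44 for 5 of the Dlk1-Dio3 cluster, an imprinted miRNA cluster on chromosome 12. Of the 14 tested members of these lists 13 had their lowest level of the 7 libraries in day 12 library 4. miR-9-5p, a neuronal miRNA, had 19610, 27690 and 27070 CPM on day 5, 13320, 26920 and 25670 CPM in day 12 libraries 1 to 3 and 1184 CPM in library 4. The row miR-9b-3p had nearly the same counts as miR-9-5p and is no separate measurement. miR-143-3p, a miRNA of smooth muscle and fibroblasts, had 6658, 8944 and 8215 CPM on day 5 and 3990, 7639, 5528 and 2171 CPM on day 12. The part that these cell sources had in the other values of library 4 was not tested. The endothelial miR-126a-3p ran from 1974 to 2761 CPM on day 5 and from 1094 to 3001 CPM on day 12. Both miR-181 members tested had negative values, with a median of -0.84, and the miR-30 family had a median of -0.25, with 2 of 5 positive.

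The remaining short lists had 0 calls. miR-203-3p (squamous epithelium), miR-122-5p (liver) and miR-29a-3p had log2 medians of 0.33, 0.27 and 0.23 as single tested members, and each of the 3 turned negative by library total. The enteroendocrine-linked and miR-183 list had 3 of 4 positive, with a median of 0.59. The miR-378 family had 2 of 2 positive, with a median of 1.41, and without day 12 library 1 the value of miR-378c went from 1.15 to 0.018 and that of miR-378a-3p from 1.66 to 1.08. No member of the pancreas or miR-34 lists was tested.

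Among miRNAs numbered 1000 or higher, 10 of 11 tested had positive values, with a median log2 fold change of 1.29, and 1 passed, miR-5126. Of the 10, miR-5100 had enough counts for the test only with day 12 libraries 2 and 3. Its sign is therefore not read as a property of the set. Among the positive rows, miR-3074-5p had 1375 counts over all libraries and miR-24-3p 1376, nearly the same in each. It is no measurement separate from miR-24-3p, a member of another list. The share of miRNAs numbered 1000 or higher was 1.23% to 1.68% on day 5 and 2.11%, 4.80%, 4.83% and 1.77% on day 12. Libraries 2 and 3 were high and the groups did not overlap. miR-6538, from an intron of Rnf144a on chromosome 12, made up much of this share in day 12 libraries 2 and 3. In the other libraries of these days it was a smaller part. Its level was 2906, 1912 and 1549 CPM on day 5 and 3282, 21600, 20170 and 7452 CPM on day 12. edgeR's estimate was a log2 fold change of 2.62 ± 1.06 (SE), at an adjusted p of 0.177. It was 1.66 in the fit with the block, and the adjusted p was 0.0261 without library 2 from before DSS. In that library miR-6538 stood at 20570 CPM, close to day 12 libraries 2 and 3, and the share of these miRNAs at 6.89%, above every day 12 library. miR-5126 and miR-6538 were the tested rows of highest G and C content, 100% and 94.7% of their bases against a median of 45.5% over the 113 rows with a sequence. No other of these rows reached 70%. miR-5100 had 158, 0 and 202 CPM on day 5 and 547, 500, 658 and 247 CPM on day 12, a log2 fold change of 1.99 ± 0.77 (SE) with an edgeR adjusted p of 0.158.

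Both arms of 11 hairpins were tested. In 7 of them the arms had 1 direction, miR-223 and miR-142a among them. Both arms of miR-223, and miR-142a-3p, had enough counts for the test only through day 12. The agreement of these arms is therefore not read as a result. Another of the 7 is miR-486a, whose rows are 1 measurement and had to agree. In 4 the arms did not have 1 direction (miR-215, miR-30e, miR-423 and miR-9). Of the opposite pairs, no arm had an unadjusted p under 0.05.

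Among rows in none of these groups, novel_285 had 634, 185 and 67.3 CPM on day 5 and 354, 4365, 1876 and 1036 CPM on day 12. Library 1 of day 12 lay inside the day 5 range, and library 2 was highest. The row had enough counts for the test only through day 12. Its log2 fold change of 2.61, with an edgeR adjusted p of 0.111, was 1.84 without day 12 library 2 and 3.83 without day 5 library 1. It passed at 0.0327 without day 12 library 1. miR-320-3p had 1427, 1419 and 1481 CPM on day 5 and 837, 1273, 1185 and 987 CPM on day 12, wholly lower on both scales, with a log2 fold change of -0.43 and an adjusted p of 0.530. Of the most abundant rows, miR-26a-5p ran from 11520 to 14190 CPM on day 5 and from 13230 to 19630 CPM on day 12, and miR-7a-5p from 11660 to 13800 and from 9556 to 19510 CPM. Both overlapped.

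As a whole, the day 12 libraries held larger totals and a smaller share of counts in numbered rows. Day 5 totals were 14025 ± 3350 counts (SD, n = 3) and day 12 totals 28166 ± 9250 counts (SD, n = 4), a total of miRNA reads kept by the authors and not of fecal RNA. The numbered rows held 1.12%, 0.867% and 4.16% of the counts on day 5 and 0.683%, 0.843%, 0.590% and 0.853% on day 12. For both measures the exact two-sided permutation test gave p = 0.0571, the smallest that 4 against 3 libraries allow, and 0.171 adjusted over 6 measures. Library 3 of day 5 and library 4 of day 12 were nearly the same in the numbered rows. miR-21a-5p held 20.02% to 20.43% of a library on day 5 and 24.96% to 41.95% on day 12. The share of the 10 most abundant rows was 56.2% ± 2.18 (SD, n = 3) and 63.2% ± 8.65 (SD, n = 4), and Shannon entropy was 5.43 ± 0.12 and 4.85 ± 0.59 bits. Rows detected at 11749 counts numbered 287 ± 12.2 and 264 ± 32.9. Neither these nor the share of 3p arms, 34.2% ± 1.83 and 29.8% ± 3.42, separated the groups, with exact permutation p-values of 0.171 to 0.400.

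Of the 479 rows below the filter 62 had at least 20 counts over the 7 libraries. Several were carried by 1 library. miR-184-3p, a miRNA of squamous and corneal epithelium, had 519 of its 532 day 12 counts in library 2, or 23600 CPM. The row novel_214 had 326 of its day 5 counts in library 4, and novel_401 had 158 counts in day 12 library 4 and 0 in the other 6. With no filter on low counts miR-184-3p and novel_401 had log2 fold changes of 5.06 and 8.26, above the 4.00 of miR-223-3p in that fit. The row novel_160 had 5, 1 and 45 counts on day 5, most of them in library 4, and 0 on day 12. Also seen in every day 5 library and in no library of day 12 were novel_240 (5, 17 and 4 counts) and novel_358 (16, 14 and 5), at least 23.2-fold and 31.2-fold lower against a floor of 3 counts over the day 12 group, by library total. The row novel_280 had 4, 17 and 7 counts on day 5 and 2 on day 12, a ratio of pooled CPM of 0.0267 (exact 95% interval 0.00308 to 0.106). In the other direction miR-7b-5p had 2 counts on day 5 and 41 on day 12. The latter were 8, 8, 4 and 21 in libraries 1 to 4, and the ratio was 7.66 (exact 95% interval 1.99 to 65.3). The row novel_307 had 3 and 37 counts. miR-3068-3p had 2 and 36 counts, a ratio of 6.72 (exact 95% interval 1.73 to 57.6). These intervals cover counting error only and say nothing about the spread between libraries. The rows were named because their pooled difference was large, which the intervals do not allow for.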

How the data were processed

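The authors deposited a table of raw read counts for 616 rows (544 miRNA names and 72 numbered rows) in 11 libraries of fecal small RNA. Per the labels' protocols, a mirVana kit served for RNA and a TruSeq small RNA kit for libraries, and the ACGT101-miR program removed adapter dimers, low complexity reads, other RNA families and repeats. The aligner, the miRNA release and the genome build are not given in the sources. The table's 11 other columns, scaled values, were not used. Removal of other RNA families means that totals are miRNA totals.

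Columns were assigned by the labels. The day 12 columns match titles by number, the day 5 columns (1, 3 and 4) were assigned to their group, and the columns of before DSS, which carry another day name than the titles, were assigned as the 1 group left.

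Counts were fitted with edgeR 4.0.16 in R 4.3.3 by its quasi-likelihood method with TMM factors, with 11 libraries on group and the contrast of day 12 minus day 5. edgeR's default filter kept 137 rows, which held 94.1% to 98.2% of each library. Benjamini-Hochberg adjustment ran over these rows, with a threshold of 0.05. The steps were tested on simulated data. Composition measures were compared with exact permutation tests in scipy 1.17.1. A floor is 3 counts. Because reads have no molecular identifiers, intervals and floors speak of counting error only. Seeds and positions came from RefSeq for GRCm38.p6, and the genes that overlap a hairpin from GENCODE for GRCm38.

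The members and the lists were chosen with earlier results of these data known. The rows to name were, by rule, the calls, the 10 largest fold changes in each direction at an unadjusted p under 0.05, the 15 most abundant, those whose groups are apart on both scales, up to 6 tested members of each list, and 5 untested rows in each direction. Some list members are given only through their list's counts and median. Day 5 and day 12 libraries of the same number deviated together from their group means, with correlations of 0.235, 0.347 and 0.101 for numbers 1, 3 and 4. No label says what a number stands for, and 2 of the 3 day 5 libraries correlated higher with another number, library 1 with day 12 library 4 (0.359) and library 3 with day 12 library 2 (0.464). Each of the 3 same-number pairs was over 0.1, which does not establish a pairing. The blocked fit is therefore an alternative only, and its value is given where it changes a call. The alternatives were other scalings and filters, DESeq2 1.42.0, limma 3.58.1 (voom, and trend on log2 CPM by library total, at pseudocounts 1, 0.1 and 10), a fit of 7 libraries, the block, removal of the top 5, of duplicate or of numbered rows, and leaving out each library.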

Additional observations from a re-analysis of the deposited data

Results flagged for a closer look

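In 6 of the 94 groups of 4 libraries examined, the day 12 value of 1 library stood apart from the others by Dixon's criterion, which chance meets in about 1 group in 20. All 6 were high values of day 12 library 4 in TMM-scaled CPM. miR-200b-3p had 71710 CPM there against 19510 to 21050 CPM in the other 3. miR-200c-3p had 17570 CPM against 4093 to 5528 CPM. miR-183-5p had 12140 CPM against 2365 to 3159 CPM. miR-223-3p had 9130 CPM against 3153 to 3817 CPM. miR-23a-3p had 3849 CPM against 1910 to 2205 CPM, and miR-652-3p had 1727 CPM against 740 to 888 CPM. Without that library miR-223-3p and miR-652-3p still passed the threshold.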

How the results depend on the processing

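The 5 calls kept their direction in every alternative in which they were tested. Their number, 5 (4 higher, 1 lower), moved with the filter, the tool and the libraries. It was 21 with no filter on low counts (13 higher, 8 lower), 10 at 10 CPM in 3 libraries (5 and 5), 12 by DESeq2 (9 and 3), 2 by library totals (1 and 1), and 2 in a fit of days 5 and 12 alone (1 and 1). limma-trend gave 0 at pseudocounts of 1 and 0.1 (0 higher, 0 lower), with 24 and 22 rows at an unadjusted p under 0.05, and 1 higher and 0 lower at 10. Without numbered rows, novel_249 among them, 0 were lower. With the column number as replicate block there were 14 (12 and 2), and the block changed no call of a named miRNA beyond those given beside it. Leaving out 1 library gave 1 to 7 calls, 1 to 6 higher and 0 to 2 lower. There was 1 without day 5 library 4 or day 12 library 2 or 3, and 2 without day 5 library 1 or 3 or without library 1, 3 or 4 from before DSS. Leaving out library 2 from before DSS with day 12 library 4, chosen after the data were seen, gave 10 (8 and 2). miR-223-3p lost its call in 2 of 27 alternatives, miR-5126 in 12, miR-652-3p in 13, miR-744-5p in 17, and novel_249 in 7 of 26.

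Values that had not passed reversed in places. miR-141-3p had a log2 fold change of 0.72, but -0.0026 by voom, -0.53, -0.54 and -0.47 by limma-trend at pseudocounts of 1, 0.1 and 10, and -0.75 to 1.10 leaving out 1 library. miR-9-3p had 0.63, but -0.29 by voom, -1.65, -2.48 and -0.83 by limma-trend, -0.020 with the replicate block and -0.083 to 1.0 leaving out 1 library. The difference in rows detected, day 12 minus day 5, was -23.0 at equal depth and 33.5 with all counts. Shares without the 5 most abundant rows had a log2 ratio of 0.29 for gut epithelium, 0.14 for liver and 0.18 for the miR-29 family, against -0.15, -0.038 and -0.039 with them. The causes were not tested.

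Depth limits day 5 most, since its 3 libraries hold 42075 counts and the 5 calls rest on 7 to 69 counts each on that day.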
